A study of Homo sapiens with 6 samples.

Results

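Lysosomal hydrolases and membrane proteins were followed in HCT116 cells, an established human colorectal carcinoma line, through 36 genes. The genes were chosen by their known function, but with earlier results of these data already known. All 36 were among the 18750 genes with a matched transcript, and all 36 were among the 13750 genes with enough counts to be tested. The study asked what silencing of the long non-coding RNA AC010789.1 does to these cells. It compared 3 libraries from cells transfected with a small interfering RNA against AC010789.1 (si-AC010789.1) with 3 libraries from cells given a negative control RNA (siRNA-NC). All cells were of the same line and were grown in DMEM with fetal bovine serum, so the groups differed in the transfected RNA alone as far as the labels say. A single siRNA sequence was used, according to the study's text, and it calls the replicates biological repeats, made with cells of different generations. Which generation each library came from was not given.

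The lysosome is the acidic organelle in which cells break down proteins, sugars, lipids and nucleic acids. Its soluble hydrolases are tagged with mannose 6-phosphate in the Golgi apparatus and carried by the receptors M6PR and IGF2R, while membrane proteins such as LAMP1 and LAMP2 line the organelle and NPC1 and NPC2 export cholesterol from it. The transcription factor TFEB, which is held in the cytoplasm when mTORC1 is active, binds a palindromic element in the promoters of many of these genes. In colorectal cancer cells the cathepsins are best known as proteases that can also act outside the lysosome.

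The libraries held 11277222 to 13443866 counts, and a level of 3 counts corresponded to 0.225 to 0.266 counts per 1000000 (CPM). The smallest count of any of the 36 genes in any library was 58, so none lay near that floor. Mitochondrial genes took 7.56% to 8.65% of the counts. The level of AC010789.1 itself was not analysed here, so the labels were not checked against it. The study reports that it verified the knockdown in its RNA sequencing samples. The colorectal epithelial character of the labelled line was checked with 15 marker genes, of which 7 were in the table analysed here, with a summed level of 993 to 1236 CPM in siRNA-NC against 808 to 1048 CPM in si-AC010789.1. That sum came mostly from KRT8 and KRT18, whereas EPCAM, a surface protein of epithelial cells, lay at 3.10 to 5.59 CPM, CDH1, which encodes E-cadherin, lay at 0.68 to 1.05 CPM, and the intestinal cadherin CDH17 lay at 0 to 0.17 CPM. The low EPCAM and CDH1 go against the label of an epithelial line, and the cells are therefore called by their label only. The study itself reports E-cadherin in its HCT116 cells, as protein by western blot and immunofluorescence and as mRNA by qRT-PCR. Macrophage markers, which would mark a cell type rich in lysosomes, were nearly absent, with 3 of 10 in the table and sums of 1.33 to 1.89 CPM in siRNA-NC against 1.54 to 3.12 CPM in si-AC010789.1. Of 8 fibroblast markers 5 were in the table, with sums of 60.7 to 69.9 CPM in siRNA-NC against 64.3 to 69.3 CPM in si-AC010789.1. That sum came mostly from COL1A1, at 37.8 to 48.0 CPM, and PDGFRB, at 16.4 to 19.0 CPM. Both lay above EPCAM and CDH1 and below KRT8 and KRT18. COL3A1, DCN and FAP lay at 3.99 CPM or less, and COL1A2, LUM and THY1 were not in the table.

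Because TFEB is among the genes, its palindromic element was looked for in their promoters, taken from RefSeq (GRCh38.p14) as 250 bases before to 50 bases after each transcription start. Promoters of 27 of the 36 genes were in that table, and CTSB, HEXA, MANBA, NAGLU, SGSH, ARSA, ASAH1, PSAP and LAMP2 were not. The 8-base palindrome TCACGTGA, which reads the same on both strands, was present in 5 of the 27 (18.5%) and in 1.18% of all 27305 genes with a promoter. Its 6-base core CACGTG, which every palindrome also contains, was present in 9 of the 27 (33.3%) and in 8.77% of all genes. The last 80 bases before the start are shown for the 5 genes with the palindrome, since they show the shared letters and their spacing, with each palindrome lying fully in the window in capitals:
CTSA (chr20:45891255-45891334, plus strand): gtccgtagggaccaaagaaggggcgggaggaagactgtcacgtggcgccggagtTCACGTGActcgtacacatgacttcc
GAA (chr17:80101501-80101580, plus strand): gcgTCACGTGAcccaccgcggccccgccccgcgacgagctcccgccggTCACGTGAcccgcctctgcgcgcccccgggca
LAMP1 (chr13:113297159-113297238, plus strand): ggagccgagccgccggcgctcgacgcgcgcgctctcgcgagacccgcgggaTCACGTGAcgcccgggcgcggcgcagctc
MCOLN1 (chr19:7522544-7522623, plus strand): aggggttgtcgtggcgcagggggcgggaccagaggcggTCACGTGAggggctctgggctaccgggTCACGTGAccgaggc
IGF2R (chr6:159969002-159969081, plus strand): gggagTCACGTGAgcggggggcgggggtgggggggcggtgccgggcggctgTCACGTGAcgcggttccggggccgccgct
CTSA encodes a protease that also protects neuraminidase and beta-galactosidase, GAA encodes acid alpha-glucosidase, and MCOLN1 encodes a calcium channel of the lysosomal membrane. In CTSA the palindrome began 26 bases before the start and in LAMP1 29 bases before it, with a further copy across the start of LAMP1. GAA carried copies at 77 and 32 bases, MCOLN1 at 42 and 15 bases, and IGF2R at 75 and 29 bases, with a further copy of IGF2R lying upstream of the printed window at 133 bases. The log2 fold changes between the groups, described below, ranged from -0.29 (CTSA) to 0.08 (LAMP1) for the 5 genes with the palindrome, with a median of -0.034, and had a median of -0.0050 for the 22 without. A match of letters is a description of the sequence and says nothing of binding.

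The 36 genes together took 0.452%, 0.429% and 0.436% of all counts in the siRNA-NC libraries and 0.428%, 0.438% and 0.430% in the si-AC010789.1 libraries. The means were 0.439% ± 0.0119 (SD, n = 3) and 0.432% ± 0.00517 (SD, n = 3), and the groups overlapped. To compare genes with each other, levels were expressed per length as transcripts per 1000000 (TPM). PSAP, the precursor of the saposins that help lipid hydrolases reach their substrates, was the highest, with 1089 ± 44.3 TPM in siRNA-NC and 1007 ± 119 TPM in si-AC010789.1 (SD, n = 3 each). CTSZ, which encodes the carboxypeptidase cathepsin Z, followed with 505 ± 7.85 and 499 ± 7.57 TPM, and LAMP1, a heavily glycosylated protein of the limiting membrane, with 212 ± 26.6 and 223 ± 37.8 TPM. The 3 lowest were ARSA (arylsulfatase A) with 11.0 ± 2.29 and 12.3 ± 0.44 TPM, FUCA1 (alpha-L-fucosidase) with 12.3 ± 1.04 and 9.34 ± 1.01 TPM, and CTSC (dipeptidyl peptidase 1, an activator of serine proteases in immune cells) with 5.91 ± 1.59 and 6.21 ± 0.87 TPM. The median gene lay at 71.6 TPM, and the highest was 173 times the lowest.

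**Figure D1:**
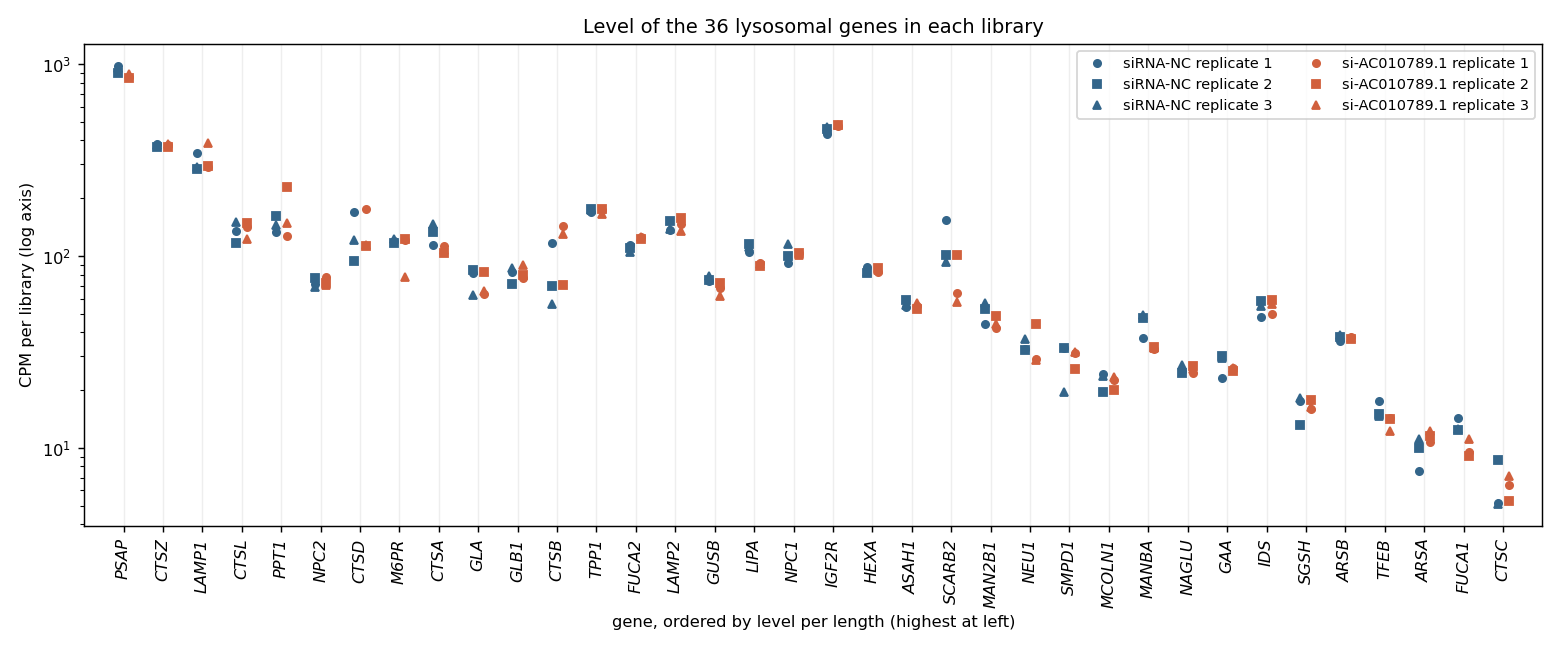
Level of each of the 36 lysosomal genes in the 6 libraries, in CPM on a log axis, with genes ordered from left to right by their level per length. Blue symbols are the 3 siRNA-NC libraries and orange symbols the 3 si-AC010789.1 libraries. For most genes the blue and orange symbols lie on top of each other, while CTSB, CTSD, PPT1 and SCARB2 spread widely inside a group.

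In the plot of levels by library, the order of the genes was set by length-scaled levels, so a long mRNA such as IGF2R stands above its neighbours in CPM. In the comparison of the groups none of the 36 genes passed the test. With edgeR's quasi-likelihood test and Benjamini-Hochberg adjustment over all 13750 genes, 0 of 36 had an adjusted p under 0.05. The share over all genes was 0.982% (96 or 0.698% lower and 39 or 0.284% higher in si-AC010789.1). Beside so small a share, a count of 0 among 36 does not set these genes apart. At an unadjusted p under 0.05, 6 of the 36 were counted (5 lower and 1 higher), a share near the 17.2% of all genes (8.92% lower and 8.25% higher), and DESeq2 counted 1 of 36 (LIPA) where it counted 5.03% of all genes. The smallest adjusted p with edgeR was 0.0836, for LIPA. In 9 of the 36 the groups did not overlap (7 lower and 2 higher in si-AC010789.1), beside 25.1% of all genes (12.9% lower). The exact permutation test for a single gene with 3 libraries against 3 cannot give a p below 0.1.

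The intervals were narrow for most genes. The median log2 fold change (si-AC010789.1 over siRNA-NC) of the 36 was -0.0022, with 18 higher and 18 lower, and that of all genes tested was -0.00066. The median size of the change, without its sign, was 0.073 for the 36 and 0.144 for all genes tested. The 95% interval of the fit lay within -1 and 1 for 34 of the 36 genes and for 83.9% of all genes, and within -0.5 and 0.5 for 25 of the 36. The exceptions at the wider limit were CTSB, with an interval from -0.34 to 1.34, and SCARB2, with an interval from -1.30 to 0.02. Here and below, fewer cells expressing a gene and less RNA per cell cannot be told apart in bulk libraries.

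**Figure D2:**
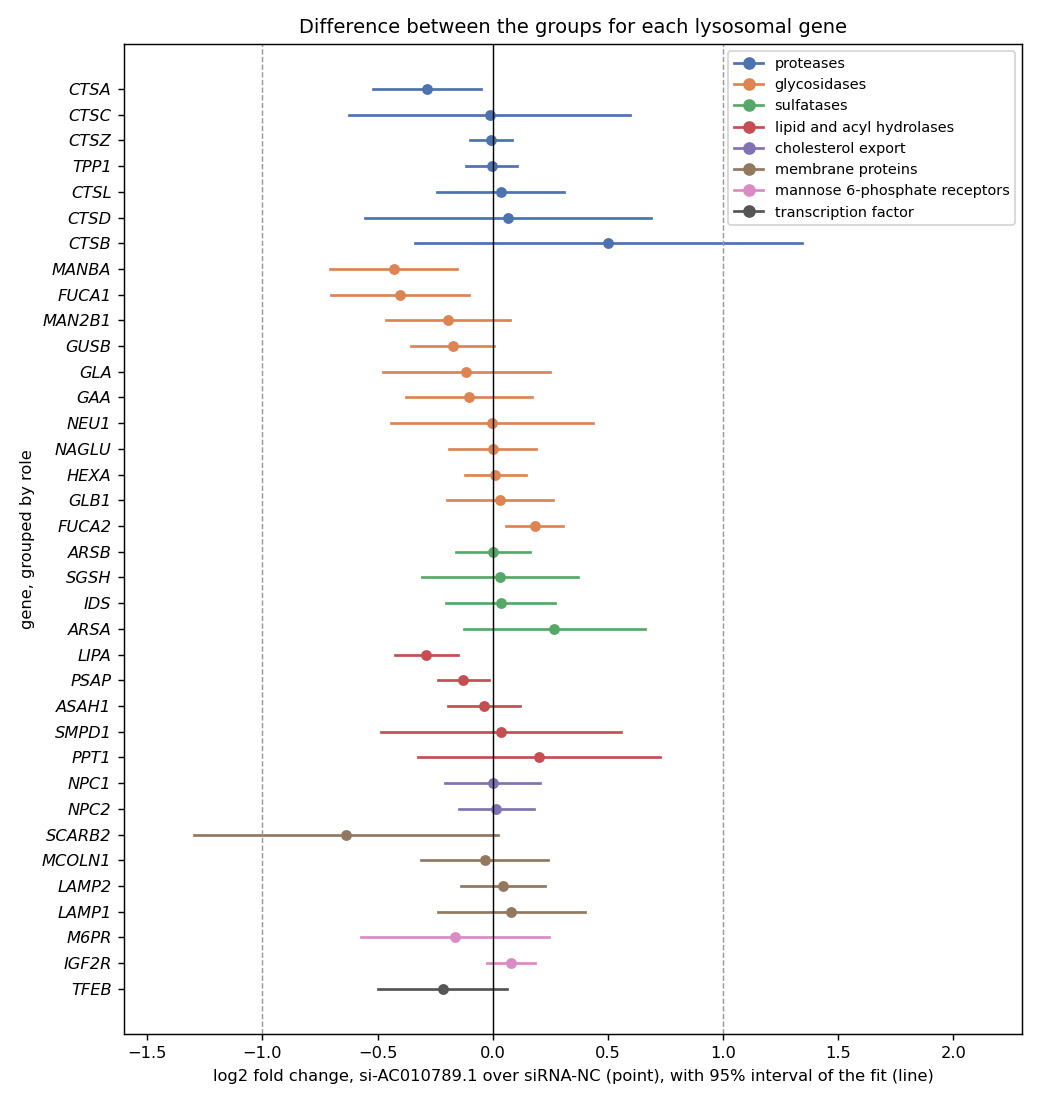
Log2 fold change of each gene between si-AC010789.1 and siRNA-NC (points), with the 95% interval of the edgeR fit (lines), grouped and coloured by role, with dashed lines at -1 and 1. The points run from -0.64 (SCARB2) to 0.50 (CTSB), and 34 of the 36 intervals lie between the dashed lines.

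As the plot of fold changes by role shows, the proteases included both the widest and some of the narrowest intervals. Of the 7 proteases 4 were lower and 3 higher, and none passed. CTSC, CTSZ and TPP1 lay so close to 0 that upper-quartile factors turned them to 0.0017, 0.010 and 0.012 on the log2 scale. CTSA lay at 113.5, 134.0 and 146.6 CPM in siRNA-NC and at 112.3, 103.6 and 107.5 CPM in si-AC010789.1. The groups were apart only because the highest si-AC010789.1 library fell just below the lowest siRNA-NC library (log2 fold change -0.29 ± 0.097 (SE), edgeR adjusted p = 0.218). CTSZ lay at 383.9, 369.3 and 379.9 against 378.6, 367.5 and 381.3 CPM, a log2 fold change of -0.0072 with an interval from -0.10 to 0.09. TPP1, a tripeptidyl peptidase whose loss causes a childhood neuronal storage disease, was as steady, at 164.9 to 176.5 CPM over all 6 libraries. CTSL, a cysteine protease, ranged from 116.4 to 150.9 CPM with a log2 fold change of 0.03. CTSC lay at 5.1, 8.7 and 5.1 against 6.4, 5.3 and 7.1 CPM, and the groups overlapped.

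CTSB and CTSD, the best known lysosomal cysteine and aspartic proteases, spread more within a group than between groups. CTSB lay at 117.4, 69.8 and 56.3 CPM in siRNA-NC and at 144.1, 70.6 and 129.6 CPM in si-AC010789.1. Each group thus held high and low libraries, the ratio of the highest to the lowest inside siRNA-NC being 2.09 (log2 fold change 0.50 ± 0.35 (SE), edgeR adjusted p = 0.518). CTSD lay at 169.8, 94.6 and 120.7 CPM in siRNA-NC and at 176.3, 112.9 and 114.1 CPM in si-AC010789.1. Replicate 1 was the highest in both groups, and the difference of 0.07 ± 0.26 (SE) did not pass (edgeR adjusted p = 0.927).

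Of the 11 glycosidases, which remove sugars from glycoproteins and glycolipids, 7 were lower and 4 higher, and in 4 the groups did not overlap, beside 25.1% of all genes. With upper-quartile factors NEU1 turned to 0.014 on the log2 scale, without a filter NAGLU turned to -0.0065, with protein-coding transcripts alone HEXA turned to -0.042 and MAN2B1 to 0.16, and leaving out single libraries took GLB1 from -0.045 to 0.089. MANBA, which encodes beta-mannosidase, lay at 37.4, 47.4 and 49.4 CPM in siRNA-NC and at 32.9, 33.4 and 33.3 CPM in si-AC010789.1. All 3 si-AC010789.1 libraries were below the lowest siRNA-NC library, with a log2 fold change of -0.43 ± 0.11 (SE), but the test did not pass (edgeR adjusted p = 0.141). FUCA1 lay at 14.3, 12.4 and 12.5 against 9.5, 9.0 and 11.1 CPM (log2 fold change -0.40 ± 0.12 (SE), edgeR adjusted p = 0.185). Its relative FUCA2 went the other way, at 114.6, 109.7 and 104.7 against 125.3, 123.1 and 124.9 CPM (log2 fold change 0.18 ± 0.051 (SE), edgeR adjusted p = 0.156). The sugar released is the same for both enzymes, and neither difference passed the test. GUSB, the beta-glucuronidase, was the other glycosidase with groups apart, at 74.2 to 78.9 CPM in siRNA-NC against 61.8 to 72.2 CPM in si-AC010789.1 (edgeR adjusted p = 0.306), and it has a related pseudogene, GUSBP1, listed at 13.1 CPM, so its sum is uncertain if reads were split between them. The remaining 7 (HEXA, GAA, GLA, GLB1, MAN2B1, NAGLU and NEU1) had log2 fold changes between -0.20 (MAN2B1) and 0.03 (GLB1). HEXA, the alpha subunit of beta-hexosaminidase, was among the steadiest at 82.0 to 87.1 CPM.

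The 4 sulfatases, which take sulfate from glycosaminoglycans and sulfatide, were all higher by values that did not pass, from 0.0013 (ARSB) to 0.27 (ARSA) on the log2 scale, and when no filter was applied ARSB turned to -0.0064, and SGSH turned to -0.28 with protein-coding transcripts alone. ARSA lay at 7.5, 10.0 and 11.1 CPM in siRNA-NC and at 10.7, 11.5 and 12.3 CPM in si-AC010789.1. The groups overlapped, and its edgeR adjusted p was 0.460. ARSB was the most even of them, at 36.2 to 38.6 CPM in all libraries, and IDS and SGSH had log2 fold changes of 0.03.

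Among the 5 lipid and acyl hydrolases and their activator was the gene nearest to the threshold. LIPA, the acid lipase that releases cholesterol and fatty acids from lipoproteins taken up by the cell, lay at 104.3, 115.8 and 111.8 CPM in siRNA-NC and at 92.1, 88.8 and 90.7 CPM in si-AC010789.1. All si-AC010789.1 libraries were below all siRNA-NC libraries, by a log2 fold change of -0.29 ± 0.057 (SE), with an edgeR adjusted p of 0.0836. DESeq2 gave LIPA an adjusted p of 0.0150, and the other alternatives, all fitted with edgeR, gave adjusted p from 0.0862 to 0.235. PSAP lay at 978.6, 901.2 and 950.0 against 852.6, 848.2 and 889.0 CPM, so that the groups were apart by a small margin (log2 fold change -0.13 ± 0.046 (SE), edgeR adjusted p = 0.235). PPT1, which cleaves palmitate from proteins, lay at 132.6, 162.1 and 144.1 against 126.6, 230.1 and 147.8 CPM. Replicate 2 of si-AC010789.1 stood far above the others, and the log2 fold change of 0.20 ± 0.22 (SE) did not pass (edgeR adjusted p = 0.696) and turned to -0.53 with protein-coding transcripts alone. Exons of CAP1 overlap PPT1 on the opposite strand, at 298 CPM in siRNA-NC against 276 CPM in si-AC010789.1, and since the counting is not stated to use strand, reads of overlapping genes cannot be told apart; CTSA, CTSD, TPP1, FUCA2, HEXA, GLB1, MAN2B1, IDS, SGSH, LIPA, NPC1, NPC2 and M6PR also overlap exons of genes in the table, with means of at most 36.6 CPM. ASAH1 (acid ceramidase) ranged from 53.1 to 59.0 CPM, and SMPD1 (acid sphingomyelinase) from 19.6 to 33.3 CPM, with both extremes of SMPD1 in siRNA-NC.

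The genes of cholesterol export showed no difference beyond the spread. NPC1, the membrane protein that passes cholesterol out of the lysosome, lay at 91.9, 100.5 and 114.9 CPM in siRNA-NC and at 103.3, 103.1 and 101.1 CPM in si-AC010789.1. The si-AC010789.1 libraries sat inside the range of siRNA-NC, and the interval of the log2 fold change ran from -0.21 to 0.21. NPC2, its soluble partner, had a log2 fold change of 0.016 and an interval from -0.15 to 0.18.

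Of the 4 membrane proteins 2 were higher and 2 lower. LAMP1 lay at 345.5, 284.4 and 289.5 CPM in siRNA-NC and at 290.3, 294.3 and 387.5 CPM in si-AC010789.1, with 1 high library in each group (log2 fold change 0.08, edgeR adjusted p = 0.808). LAMP2, its relative and in a spliced form the receptor of chaperone-mediated autophagy, lay at 135.8, 151.8 and 138.9 against 146.1, 158.5 and 135.0 CPM (log2 fold change 0.04, edgeR adjusted p = 0.818). SCARB2, the receptor that carries glucocerebrosidase to the lysosome, had the largest fold change of all 36 and is given here after its values were seen. It lay at 154.6, 100.6 and 92.7 CPM in siRNA-NC and at 64.5, 101.5 and 57.5 CPM in si-AC010789.1. Replicate 2 of si-AC010789.1 lay above the lower siRNA-NC libraries, so the groups overlapped (log2 fold change -0.64 ± 0.28 (SE), edgeR adjusted p = 0.308), and without siRNA-NC replicate 1 the log2 fold change was -0.37, against -0.92 without si-AC010789.1 replicate 2. MCOLN1 ranged from 19.5 to 24.2 CPM, and shares exonic sequence with PNPLA6 on the same strand, which lay at 148 CPM in siRNA-NC, so its sum is uncertain. Its log2 fold change was -0.034, and -0.85 with protein-coding transcripts alone (edgeR adjusted p = 0.502).

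The mannose 6-phosphate receptors differed little. M6PR, the cation-dependent receptor, lay at 119.8, 116.1 and 123.1 CPM in siRNA-NC and at 121.1, 122.0 and 77.5 CPM in si-AC010789.1. Only replicate 3 of si-AC010789.1 stood below the rest (log2 fold change -0.16 ± 0.17 (SE), edgeR adjusted p = 0.681). IGF2R, the larger receptor that also clears insulin-like growth factor 2, lay at 432.4, 458.0 and 468.6 against 473.3, 480.4 and 482.2 CPM. All si-AC010789.1 libraries were above all siRNA-NC libraries, by a log2 fold change of 0.08 with an interval from -0.03 to 0.18 (edgeR adjusted p = 0.412). TFEB, the transcription factor, lay at 17.6, 15.1 and 14.6 CPM in siRNA-NC and at 14.3, 14.1 and 12.3 CPM in si-AC010789.1. The groups were apart, at a log2 fold change of -0.22 ± 0.12 (SE) that did not pass (edgeR adjusted p = 0.400), and per length TFEB ranked 33 of 36, at 15.8 ± 1.87 and 13.6 ± 1.39 TPM (SD, n = 3 each).

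The deposited counts were given per transcript, and the 36 genes had 369 transcripts in the table, from 1 (FUCA1) to 47 for a gene. Of these 128 had under 10 counts in every library, and 174 were tested. With edgeR, 0 of the 174 had an adjusted p under 0.05, against 0.0135% of all 44319 transcripts tested, and 8 had an unadjusted p under 0.05 (4.60%, against 5.73% of all). DESeq2 called 2 of 257 transcripts of these genes (TPP1-201 and LIPA-205), against 0.922% of all. The division of shared reads among isoforms is not given in the sources used here, and the transcripts carry a large spread, with a biological coefficient of variation of 0.698 for transcripts against 0.170 for gene sums.

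**Figure D3:**
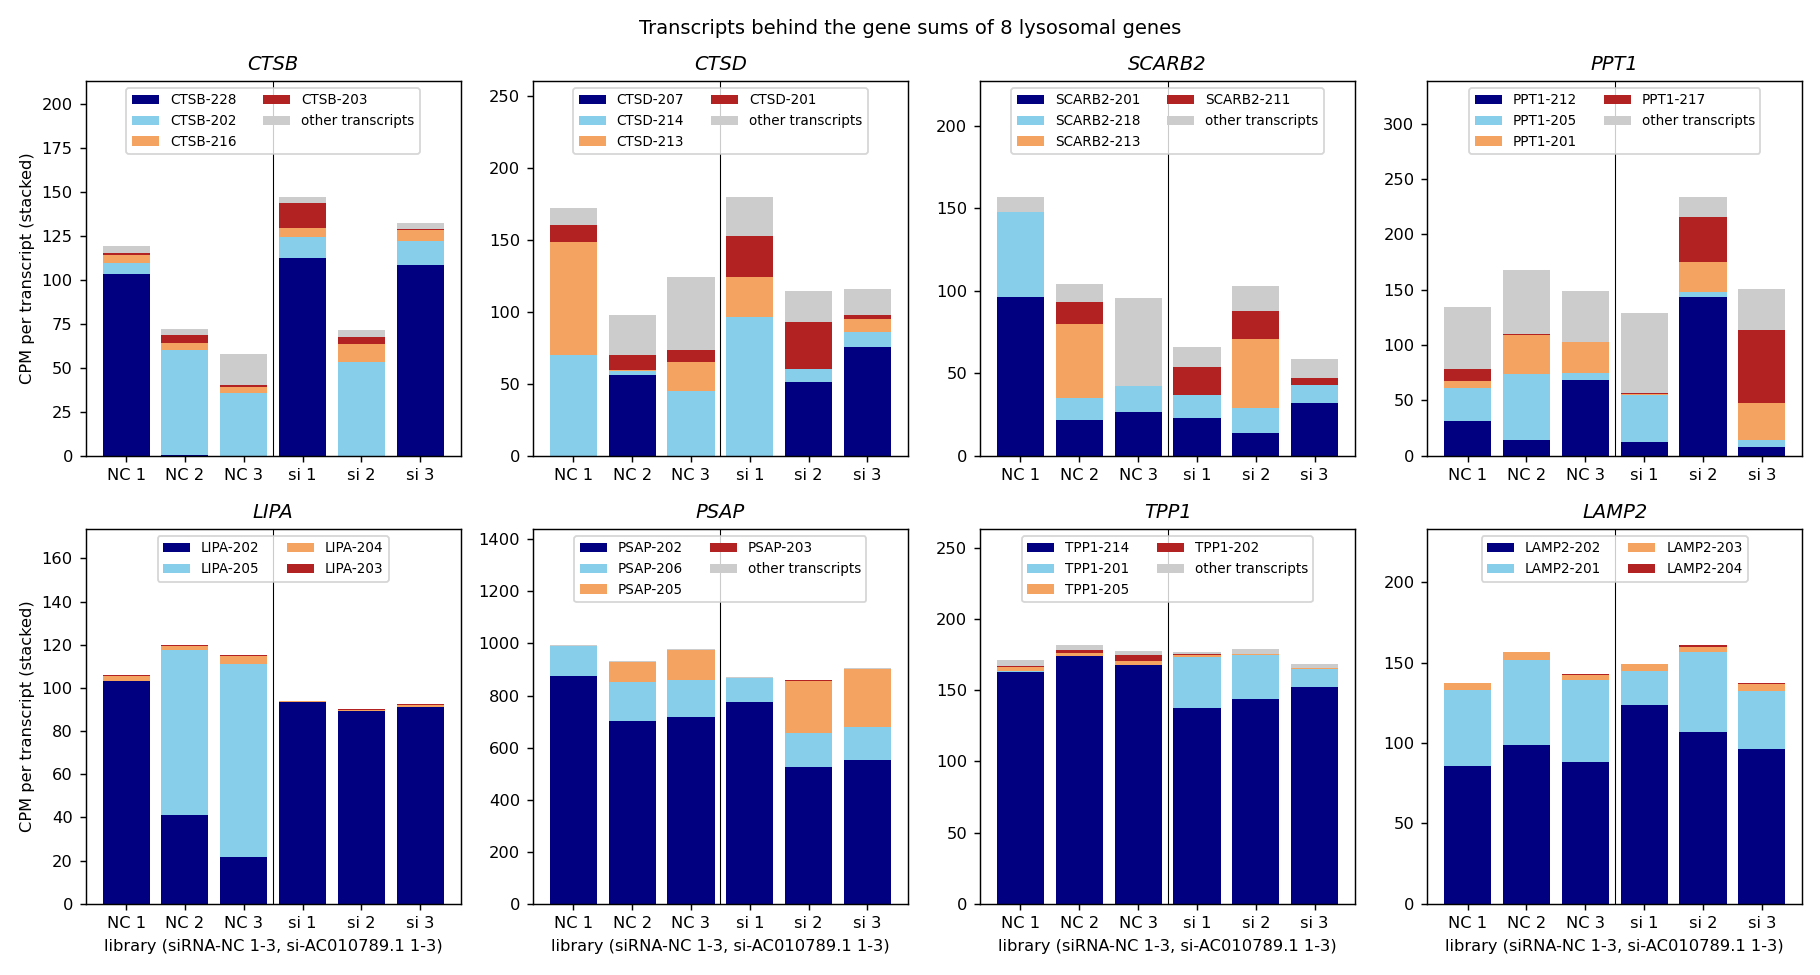
CPM of the transcripts of 8 genes, stacked, in the 3 siRNA-NC libraries (left of the line) and the 3 si-AC010789.1 libraries (right). Each panel shows the 4 transcripts with the largest mean share of the gene in colour and all others in grey. The leading transcript of CTSB, CTSD, SCARB2 and PPT1 changes from library to library inside a group, while LAMP2 keeps the same order in all 6.

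In the stacked plot, the 4 genes of the upper row had a wide spread of their sum and a leading transcript, the one with the most counts, that changed between libraries. CTSB-228 held 1152, 3 and 0 counts in siRNA-NC and 1263, 0 and 1315 counts in si-AC010789.1, whereas CTSB-202 held 67, 771 and 460 counts in siRNA-NC and 131, 656 and 164 counts in si-AC010789.1. The 3 libraries with CTSB-228 were the 3 with a high CTSB sum, and they came from both groups. For CTSD, CTSD-207 held 0, 718 and 0 counts in siRNA-NC and 0, 633 and 916 counts in si-AC010789.1, and CTSD-214, a processed transcript without an annotated protein, held 780, 34 and 583 counts in siRNA-NC and 1080, 115 and 127 counts in si-AC010789.1. The libraries in which CTSD-207 was at 0 included the highest of each group. PPT1-212, which retains an intron, held 353, 184 and 882 counts in siRNA-NC and 135, 1764 and 94 counts in si-AC010789.1, and the library with 1764 was the one with the high PPT1 sum.

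SCARB2-201 held 1069, 279 and 342 counts in siRNA-NC and 259, 173 and 388 counts in si-AC010789.1. The high siRNA-NC replicate 1 of the gene sum was the library with 1069. SCARB2-213, which retains an intron, held 574 counts in replicate 2 of siRNA-NC, 516 counts in replicate 2 of si-AC010789.1 and at most 3 elsewhere. MANBA-201 held 157, 591 and 634 counts in siRNA-NC and 328, 351 and 80 counts in si-AC010789.1, and MANBA-202 was above 0 only in replicate 1 of siRNA-NC (176) and replicate 3 of si-AC010789.1 (303). PSAP-205 was at 0 in replicate 1 of both groups and held 1008 and 1464 counts in the other siRNA-NC libraries and 2450 and 2702 in the other si-AC010789.1 libraries.

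Over the 36 genes, the distance between the transcript shares of 2 libraries (0 where the shares are the same, 1 where no transcript is shared) had a median of 0.165 within groups and 0.180 between groups. Over 13662 genes the medians were 0.143 and 0.147. The distance between groups exceeded that within groups in 12 of the 36. The leading transcript differed between libraries for 17 of the 36 genes, and for 33 the transcript with the largest mean share was protein-coding. The ratio of the highest to the lowest library within a group exceeded 1.5 for 8 genes (CTSB, PPT1, CTSD, SCARB2, SMPD1, CTSC, M6PR and NEU1), with a median of 1.24 over the 36 against 1.27 over all genes tested. Across the 36 genes this ratio went with the within-group distance, with a Spearman rho of 0.486 and a Pearson r of 0.542 (on the log of the ratio), a description over genes that share the same 6 libraries and are not independent replicates.

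**Figure D4:**
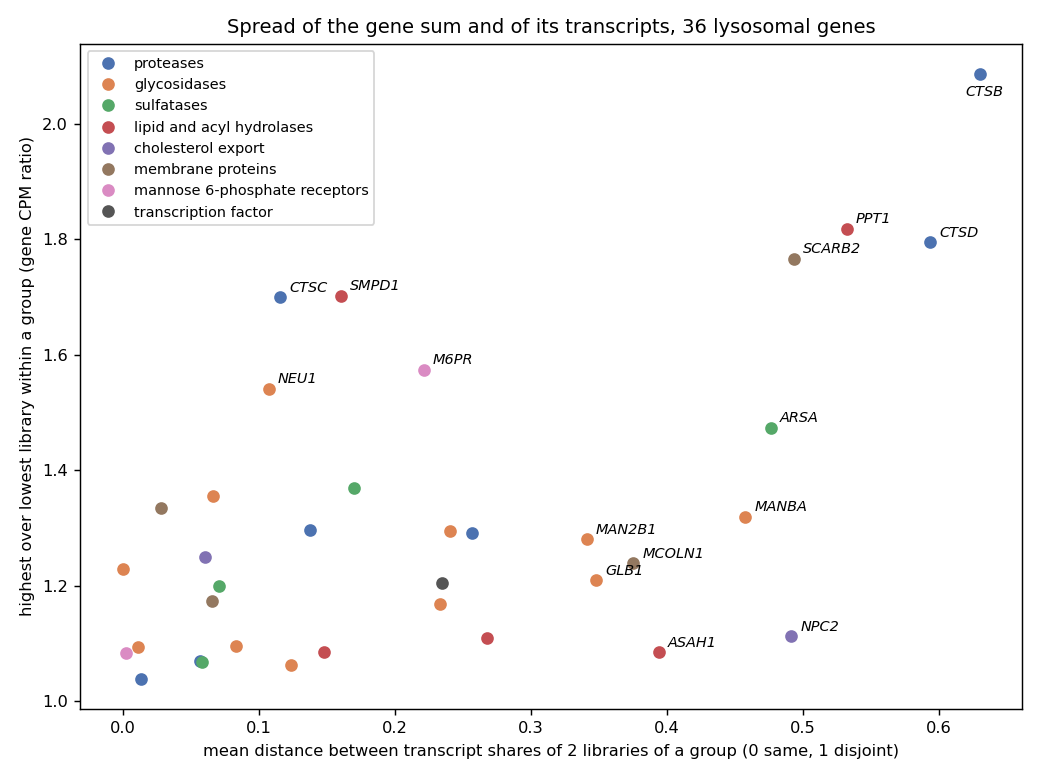
For each of the 36 genes, the highest over the lowest library within a group (vertical axis, ratio of gene CPM, larger of the groups) against the mean distance between the transcript shares of 2 libraries of a group (horizontal axis, 0 to 1), coloured by role. CTSB, CTSD, PPT1 and SCARB2 lie at the upper right, with ratios above 1.7 and the most uneven transcript shares, while SMPD1, CTSC and NEU1 have high ratios with even shares.

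The plot of spread against transcript shares also shows NPC2 and ASAH1 at the lower right, whose sums were steady although their transcripts were not. LAMP2 allowed a closer look, since its 3 main transcripts differ in the last coding exon, which encodes the membrane-spanning segment and the cytoplasmic tail. LAMP2-202 (form B) held 955, 1266 and 1142 counts in siRNA-NC and 1388, 1318 and 1165 counts in si-AC010789.1. LAMP2-201 (form A, the autophagy receptor) held 525, 677 and 660 counts in siRNA-NC and 238, 612 and 442 counts in si-AC010789.1, and LAMP2-203 (form C) held 40 to 63 counts in any library. Form C had the fewest counts in every library. The transcripts differ in length (1867 bases for form A, 4030 for form B and 2089 for form C), so the forms were compared per length. Form A over form B was 1.19, 1.15 and 1.25 in siRNA-NC against 0.37, 1.00 and 0.82 in si-AC010789.1, from TPM of 50.7 ± 2.31 and 42.4 ± 3.03 in siRNA-NC and of 36.5 ± 14.7 and 51.3 ± 6.36 in si-AC010789.1 for form A and form B (SD, n = 3 each). The groups did not overlap for this ratio, chosen after its values were seen, and a two-sided exact permutation test gave p = 0.1, the lowest value possible with 3 libraries a group. None of the 3 forms differed between the groups by the test (edgeR adjusted p = 0.946 for form A, 0.913 for form B and 0.998 for form C). The coding parts of their last exons are shown 5′ to 3′ (GRCh38, GENCODE 29), since they are what tells the forms apart, with the last 15 bases, which hold the codons of the glycine-tyrosine sorting motif at the end of the tail, in capitals:
LAMP2-201 (chrX:120431326-120431462, minus strand): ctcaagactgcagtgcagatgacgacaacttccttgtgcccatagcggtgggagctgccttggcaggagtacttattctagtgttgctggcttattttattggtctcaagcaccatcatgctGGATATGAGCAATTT
LAMP2-202 (chrX:120439157-120439293, minus strand): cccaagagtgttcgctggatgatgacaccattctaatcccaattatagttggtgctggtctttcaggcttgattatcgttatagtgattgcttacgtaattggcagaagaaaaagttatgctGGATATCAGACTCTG
LAMP2-203 (chrX:120428487-120428626, minus strand): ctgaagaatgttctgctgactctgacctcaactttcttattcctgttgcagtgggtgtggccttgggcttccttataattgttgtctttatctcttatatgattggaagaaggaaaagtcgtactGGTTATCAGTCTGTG
Form A and form B shared 58.7% of the aligned bases, form A and form C 59.3%, and form B and form C 66.4%.

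TPP1-201 had the largest log2 fold change of the 174 transcripts tested with edgeR, and is named here after its values were seen. It held 4, 1 and 2 counts in siRNA-NC and 403, 378 and 147 counts in si-AC010789.1. The groups did not overlap, the summed normalised counts were 138 times as high in si-AC010789.1 (95% exact counting interval 66.8 to 345, which covers counting error only), and the log2 fold change of 7.00 ± 0.78 (SE) had an edgeR unadjusted p of 1.6e-04 and an adjusted p of 0.153, while DESeq2 gave an adjusted p of 2.66e-12. The alternatives fitted with edgeR gave adjusted p from 0.181 to 0.947, and the log2 fold change ran from 6.63 to 7.70 when 1 library was left out, the highest value being that without siRNA-NC replicate 1. The leading transcript TPP1-214 held 1814, 2227 and 2167 counts in siRNA-NC and 1543, 1773 and 1848 counts in si-AC010789.1, with a log2 fold change of -0.22 (edgeR adjusted p = 0.819), so that the gene sum differed by a log2 value of only -0.0051. TPP1-201 has 13 exons and TPP1-214 has 12, of which 10 are the same, and the first intron of TPP1-201 (chr11:6619268-6619383, 116 bases) lies inside the first exon of TPP1-214. LIPA-205 went the other way, with 0, 984 and 1158 counts in siRNA-NC and 0 in all 3 si-AC010789.1 libraries. LIPA-202 held 1151, 525 and 281 counts in siRNA-NC and 1051, 1101 and 1104 counts in si-AC010789.1, so siRNA-NC replicate 1 had the transcript pattern of the si-AC010789.1 libraries. LIPA-205 was not tested by edgeR because of its filter, and DESeq2 gave it an adjusted p of 0.0304.

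Other lysosomal genes outside the 36 were read from 5 lists, whose counts stand beside shares over all genes of 0.982% passing with edgeR, 8.25% higher and 8.92% lower at an unadjusted p under 0.05, and 5.03% called by DESeq2. Of 34 other hydrolases and activators 30 were tested and 0 passed with edgeR, with 1 higher and 2 lower at an unadjusted p under 0.05, 1 called by DESeq2 and a median log2 fold change of 0.0057. The smallest p belonged to HYAL1, a hyaluronidase, at 47.2, 56.1 and 56.9 against 75.0, 69.5 and 73.8 CPM (edgeR adjusted p = 0.0847). It was the gene called by DESeq2 (adjusted p = 0.0045), and the alternatives fitted with edgeR gave adjusted p from 0.0798 to 0.218. HYAL1 was higher in every si-AC010789.1 library than in any siRNA-NC library. Of 37 other membrane proteins 33 were tested and 0 passed with edgeR, with 2 higher and 4 lower at an unadjusted p under 0.05, 0 called by DESeq2 and a median of -0.020, and GLMP and LAPTM4B had the smallest p (edgeR adjusted p = 0.121 and 0.174). GLMP lay at 49.3, 50.6 and 46.1 against 41.1, 40.0 and 38.6 CPM. LAPTM4B lay at 117.6, 119.8 and 110.1 against 106.0, 98.2 and 99.5 CPM. Both were lower in every si-AC010789.1 library, while by sign alone 16 of the 33 were higher.

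Of 18 subunits of the V-ATPase, the proton pump that acidifies the lysosome, all were tested. With edgeR 1 passed as lower in si-AC010789.1 and 0 passed as higher, and DESeq2 called 1. By sign alone, 10 of the 18 had a higher level in si-AC010789.1. ATP6V1A, the catalytic A subunit of the cytoplasmic domain, lay at 157.2, 158.1 and 150.4 CPM in siRNA-NC and at 116.1, 106.6 and 108.0 CPM in si-AC010789.1. The groups were far apart relative to their spread, with a log2 fold change of -0.49 ± 0.053 (SE) and an edgeR adjusted p of 0.0210. It was the subunit called by DESeq2 (adjusted p = 1.2e-08). Leaving out 1 library kept the fold change between -0.53 and -0.47, and its adjusted p stayed under 0.05 only without si-AC010789.1 replicate 1 (edgeR adjusted p from 0.0417 to 0.0881 over the 6 libraries left out in turn). The call was also lost with the replicate number as a block (log2 fold change -0.49, edgeR adjusted p = 0.126), a fit in which no gene of the table passed. The median of the 18 was 0.0068, with 0 higher and 3 lower at an unadjusted p under 0.05.

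Of 19 genes of mannose 6-phosphate tagging and sorting 0 passed with edgeR, with 5 higher and 2 lower at an unadjusted p under 0.05, 1 called by DESeq2 and a median of 0.046. The 5 higher were AP1M1, VPS29, VPS26A, GGA2 and AP1M2, and by sign alone 14 of the 19 had a higher level in si-AC010789.1. The 2 lower, SORT1 and GNPTAB, had the smallest p. SORT1, the sorting receptor sortilin, lay at 138.4, 130.7 and 132.6 against 116.3, 115.3 and 115.2 CPM (edgeR adjusted p = 0.0969). GNPTAB, the enzyme that starts the mannose 6-phosphate tag, lay at 84.3, 81.0 and 80.3 against 72.5, 68.6 and 68.1 CPM (edgeR adjusted p = 0.122). Both were lower in every si-AC010789.1 library, and neither passed with edgeR. SORT1 was the gene called by DESeq2 (adjusted p = 0.0408), and the alternatives fitted with edgeR gave it adjusted p from 0.0973 to 0.243. Of 20 relatives and regulators of TFEB 18 were tested and 0 passed with edgeR, with 1 higher and 1 lower at an unadjusted p under 0.05, 0 called by DESeq2 and a median of -0.0093, and MTOR and LAMTOR4 had the smallest p (edgeR adjusted p = 0.230 and 0.246). MTOR was the lower, at 198.3, 193.2 and 196.0 against 185.7, 179.9 and 172.8 CPM. LAMTOR4 was the higher, at 19.2, 20.9 and 24.1 against 27.1, 26.4 and 24.7 CPM.

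**Figure D5:**
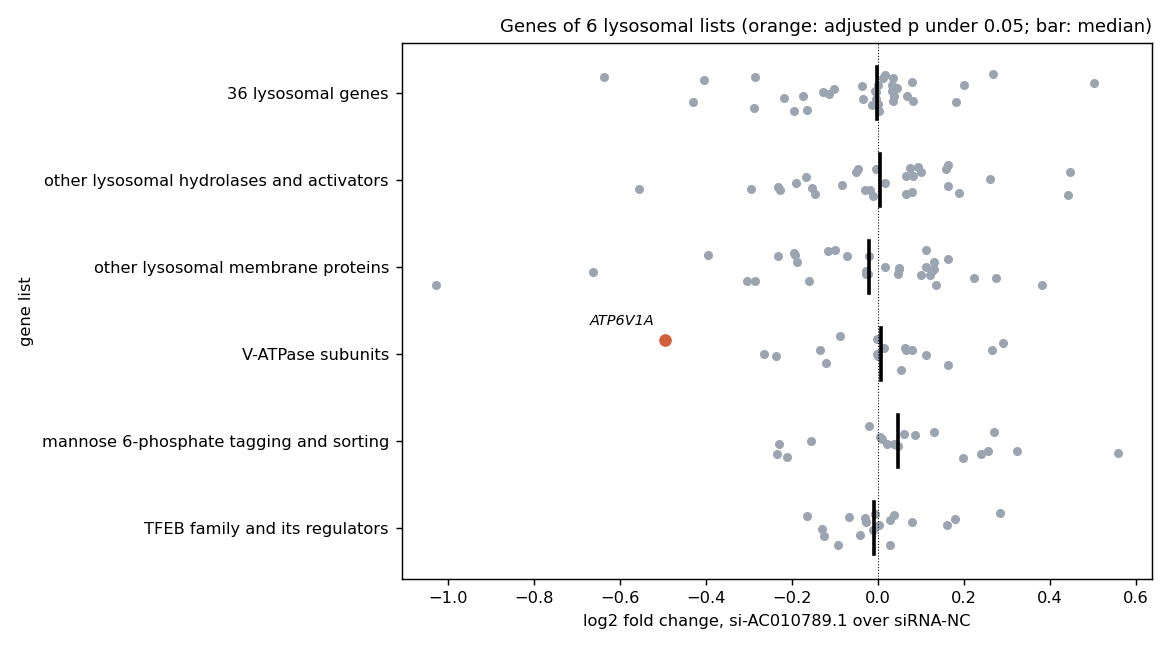
Log2 fold changes between si-AC010789.1 and siRNA-NC of the 36 lysosomal genes and of the genes tested in 5 other lysosomal lists (points, spread vertically for view), with the median of each list as a bar. The medians lie between -0.020 and 0.046, and the only gene with an adjusted p under 0.05 is ATP6V1A, in orange at -0.49.

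The plot of the lists shows that points of each list lay on both sides of 0. The median over all genes tested was -0.00066, and each list's median differed from it by less than 0.1 on the log2 scale.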

How the data were processed

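RNA was sequenced from 3 siRNA-NC and 3 si-AC010789.1 samples of HCT116 cells as paired-end libraries. The authors deposited raw counts for each Ensembl transcript in each library, without normalisation. The submitters' processing notes name CASAVA 1.8 and TopHat2 2.0.6 and the builds GRCh38 and mm10, without roles; the study's text names Cuffdiff. The counting program is not given in the sources used here.

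Of 98886 transcripts listed, 98782 were matched to GENCODE 29 (GRCh38) and summed to 18750 genes. Genes with enough counts (filterByExpr of edgeR 4.0.16, minimum count 10, minimum total 15) were scaled by TMM (factors 0.9935 to 1.0073) and tested in R 4.3.3 by quasi-likelihood, with p-values of the 13750 genes adjusted after Benjamini and Hochberg; the same was done for transcripts. CPM is per 1000000 scaled counts. TPM was computed from the counts and the annotated transcript lengths, scaled to 1000000 per library. DESeq2 1.42.0, other scaling factors, filters, a replicate block, protein-coding transcripts alone and leaving out each library were alternatives. The fit was tested on simulated data.

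Values per library are given for members with an adjusted p under 0.05, for the 6 largest fold changes among members with groups apart, for the 3 most spread, the 3 highest and the 3 lowest members, and for TFEB, NPC1, LAMP1, LAMP2, CTSD, M6PR and IGF2R; in other lists, for the genes that passed or otherwise the 2 smallest p. The result of 1 gene that this rule names is not reported here. Members, lists and this rule were chosen with earlier results of these data known, and other named genes were chosen after their values were seen. The count of other lists, ATP6V1A, HYAL1, SORT1, TPP1-201 and the protein-coding levels per length were alternatives added after the data were seen.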

Additional observations from a re-analysis of the deposited data

How the results depend on the processing

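The count of 0 of the 36 genes with an adjusted p under 0.05 held in every edgeR alternative, and DESeq2 gave 1 (LIPA, adjusted p = 0.0150). Over all genes the count of 135 became 559 with DESeq2, 69 without the filter on low counts, 56 with protein-coding transcripts, 0 with the replicate block and 12 to 37 when 1 library was left out. The median log2 fold change of the 36 became 0.016 with upper-quartile factors, -0.0099 without the filter, 0.0081 with protein-coding transcripts and -0.031 to -0.0033 when 1 library was left out. Of the 36 genes, those with groups apart numbered 7 with protein-coding transcripts and 9 to 13 when 1 library was left out. Groups are more easily apart with fewer libraries, so the latter counts cannot be set beside the 25.1% of all genes. The share over all genes is not given here for these alternatives. DESeq2 called 1 gene among the other hydrolases, 1 among the sorting genes and 2 transcripts of the 36 genes. V-ATPase subunits passing numbered 0 with the replicate block (ATP6V1A log2 fold change -0.49, edgeR adjusted p = 0.126) and 0 to 1 when 1 library was left out. The median level per length was 58.4 TPM with protein-coding transcripts alone, against 71.6 TPM.

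Of the 36 genes 15 kept their direction in every alternative and 21 did not, with main values of at most 0.20 in size on the log2 scale among the latter. With upper-quartile factors the log2 fold change became 0.0017 for CTSC, 0.010 for CTSZ, 0.012 for TPP1 and 0.014 for NEU1. Without the filter it became -0.0065 for NAGLU, -0.0064 for ARSB and -0.0076 for NPC1, and with the replicate block 0.019 for CTSC. With protein-coding transcripts it became 0.053 for CTSC, -0.049 for CTSL, 0.021 for CTSZ, 0.034 for TPP1, -0.042 for HEXA, 0.16 for MAN2B1, 0.026 for NEU1, -0.28 for SGSH and -0.53 for PPT1, and MCOLN1 moved to -0.85 in the same direction. Leaving out 1 library at a time turned the direction of 20 genes, with log2 fold changes over these fits of ARSB -0.022 to 0.022, CTSC -0.15 to 0.29, CTSD -0.18 to 0.32, CTSL -0.060 to 0.12, CTSZ -0.024 to 0.012, GLB1 -0.045 to 0.089, HEXA -0.0054 to 0.042, IDS -0.035 to 0.10, LAMP1 -0.069 to 0.18, LAMP2 -0.013 to 0.099, M6PR -0.27 to 0.021, MCOLN1 -0.13 to 0.030, NAGLU -0.028 to 0.039, NEU1 -0.24 to 0.10, NPC1 -0.070 to 0.090, NPC2 -0.022 to 0.059, PPT1 -0.090 to 0.37, SGSH -0.10 to 0.11, SMPD1 -0.18 to 0.16 and TPP1 -0.023 to 0.022. The cause of these changes was not tested, beyond the fewer libraries or transcripts in a fit.

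Whether a replicate number marks a shared cell generation is not given in the sources used here. Same-numbered samples were not treated as pairs in the main fit. The correlations of their deviations from the group means were 0.090, 0.0028 and 0.00033 for replicates 1, 2 and 3. That of replicate 1 was the largest of any combination, while replicate 2 of siRNA-NC correlated best with replicate 3 of si-AC010789.1 (0.079). All were low, and low correlations over all genes cannot decide whether the samples were paired. With the replicate block no gene of the table passed, so besides the counts above it changed no call of the 36 genes or of the other 4 lists. The floors and the exact interval of TPP1-201 cover counting error only, whereas the intervals of log2 fold changes include the spread between libraries. Whether single transcripts are limited more by that spread or by depth was not tested.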
